A study of Mus musculus with 24 samples.

Results

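The endothelial and angiogenesis genes are 39 genes chosen by symbol, and all 39 were found among the 33079 genes for which exon RPKM values were deposited. RPKM is the number of reads on a gene scaled to the length of its exons and to the size of the library, so that levels can be compared between genes as well as between samples. WT cells were mouse embryonic stem (ES) cells with a Per2::Luciferase knock-in, and KO cells carried the same knock-in and were deficient in Rev-erbα (Nr1d1) and Rev-erbβ (Nr1d2), a pair of nuclear receptors that repress clock genes. Both were formed into embryoid bodies, plated on gelatin and differentiated to day 28. They were then given 100 nM dexamethasone and collected every 4 h from 12 to 56 h later. Each of the 12 WT and 12 KO time points is 1 library, for which RNA from 3 embryoid bodies was combined, so no time point has a replicate and every SD below is taken over the 12 time points of a genotype. In the KO cells Rev-erbα was deleted in an established Rev-erbβ-deficient line, so that an effect of the genotype and a difference between cell lines cannot be told apart. Values summed over all exons do not show the deletion: Nr1d1 spanned 3.58 to 7.48 RPKM over the WT libraries and 2.48 to 9.74 RPKM over the KO libraries, and Nr1d2 spanned 0.895 to 3.02 and 1.38 to 5.27 RPKM.

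Endothelial cells line blood and lymph vessels and arise in embryoid bodies from mesoderm. They are held together by junction proteins, sense the vascular endothelial growth factor VEGF and the angiopoietins through receptor tyrosine kinases, and take their identity from ETS and SOX family transcription factors. A sprouting vessel is led by a tip cell, and vessels then become arterial, venous or lymphatic, with NOTCH and ephrin signals marking arteries and the factor PROX1 marking lymphatics. The 39 genes were therefore described as 12 junction and surface proteins, 4 secreted, enzymatic or accessory proteins, 4 VEGF and angiopoietin receptors, 6 transcription factors, 3 tip cell genes, 5 arterial genes, 2 venous genes and 3 lymphatic genes.

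Between 6183500.5 and 10287969 fragments per library fell on exons, with a median of 7944292.25, and between 5561.5 and 10095.5 fragments per library fell on the 39 genes together. The neuropilin Nrp1, a co-receptor for VEGF and semaphorins, was the highest at 21.5 ± 1.31 RPKM in WT (SD, n = 12 time points), followed by the surface sialomucin Cd34 at 16.4 ± 3.58 RPKM and the VEGF receptor Flt1 at 12.2 ± 1.12 RPKM. The venous receptor Ephb4 lay at 8.75 ± 0.316 RPKM and the ephrin Efnb2 at 6.63 ± 0.779 RPKM. Genes regarded as defining for endothelium were lower: Cdh5, the VE-cadherin of endothelial junctions, was at 5.25 ± 3.16 RPKM, Pecam1 at 1.29 ± 0.518 RPKM, Kdr at 0.989 ± 0.210 RPKM, Erg at 0.258 ± 0.0917 RPKM and Vwf, which encodes the clotting protein von Willebrand factor, at 0.0873 ± 0.0338 RPKM. The arterial connexin Gja5 was the lowest, at 0.0352 ± 0.0343 RPKM in WT against 0.0613 ± 0.0360 RPKM in KO, which is a mean of 1.88 and 3.38 fragments per library, and it was listed at 0 in 2 WT libraries.

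**Figure D1:**
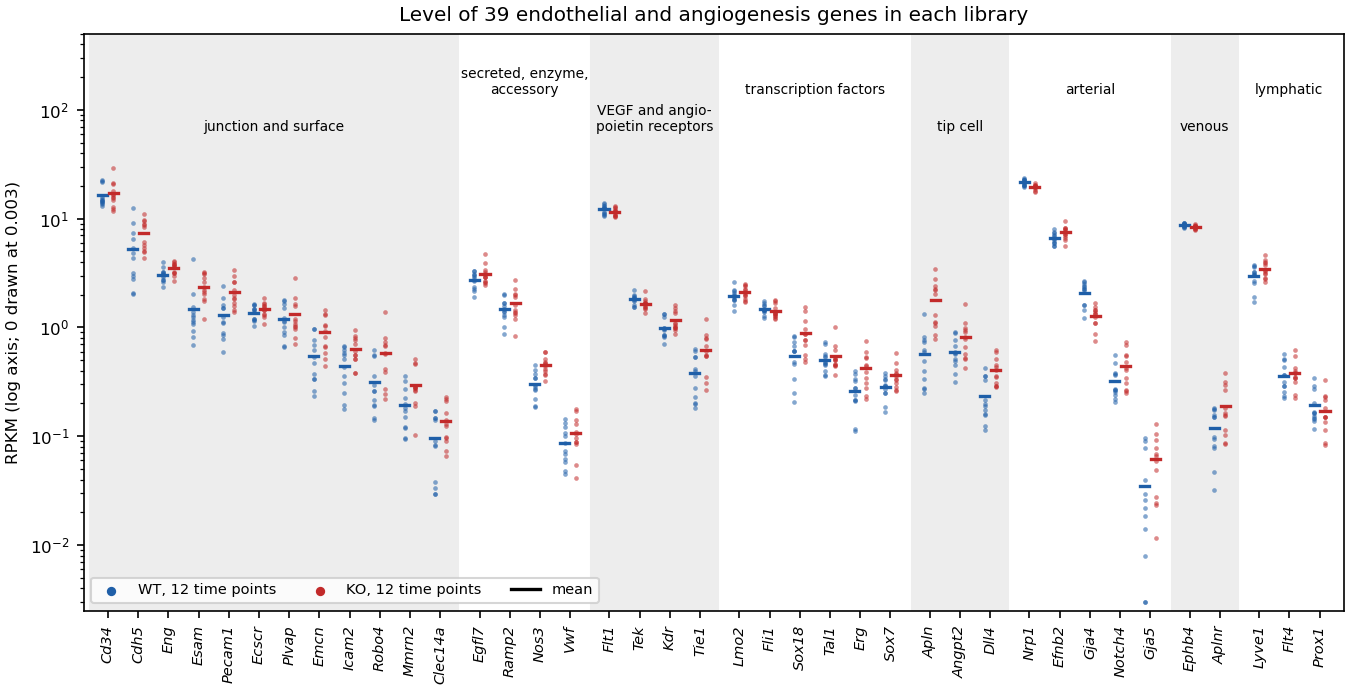
RPKM (log axis) of the 39 genes in each of the 24 libraries, by group of genes and ordered within a group by mean level; points are libraries, WT in blue and KO in red, and bars are the means of 12 time points. Nrp1, Cd34 and Flt1 lie above 10 RPKM in every library, Gja5 lies at or below 0.128 RPKM, and the WT and KO points of each gene overlap.

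The genes also differed in how steady they were over time. The coefficient of variation over the 12 time points was 3.62% in WT and 3.63% in KO for Ephb4, 6.08% and 5.58% for Nrp1, and 9.17% and 8.02% for Flt1. It was 60.3% and 31.1% for Cdh5, 64.7% and 26.8% for the junction protein Esam, and 54.8% and 48.8% for the peptide ligand Apln. The highest value of a gene fell at 12 or 16 h in WT for 24 of the 39 genes and in KO for 15. Each of these time points is a single library, and the share over all genes was not taken.

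To see which of these genes differed in level between the genotypes, the 12 WT and the 12 KO libraries were compared with limma on log2(RPKM + 0.1) over 15112 genes with a mean above 0.5 RPM, the same measure without the scaling to length, in either genotype, with Benjamini-Hochberg adjustment over all of them. Of the 39 genes, 38 passed this filter on low values, and Gja5 did not. At an adjusted p under 0.05, 12 of the 38 genes differed (31.6%), against 26.3% of all genes tested. Higher in KO were 10 genes, or 26.3% of the 38 against 11.5% of all genes, and 2 were lower, or 5.26% against 14.7%. The median log2 difference, KO minus WT, was 0.22 for the 38 genes and -0.01 for all genes tested, and 31 of the 38 differences were positive. The ranges of WT and KO overlapped for all 39 genes. With the time points from 12 to 32 h alone 3 of the 38 genes passed, which were Apln, Erg and Gja4, where 1331 of all 15112 genes passed. With those from 36 to 56 h 7 passed, which were Apln, Dll4, Pecam1, Esam, Emcn, Nos3 and Nrp1, where 2072 of all genes passed. Robo4, Tie1 and Sox18 passed in neither of these. More genes passed, 20 each, with quantile normalization and with time and rhythm as covariates, where 3822 and 4526 of all genes passed. With a mean of at least 1 RPKM required, 20 of the 38 genes were left, 3 higher and 2 lower in KO. Of all 12243 genes in that setting 1484 were higher and 1699 lower, so the excess of genes called higher in KO was small there. Because RNA came from all cells differentiated from the embryoid bodies together, more cells of a type and more RNA per cell cannot be told apart.

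**Figure D2:**
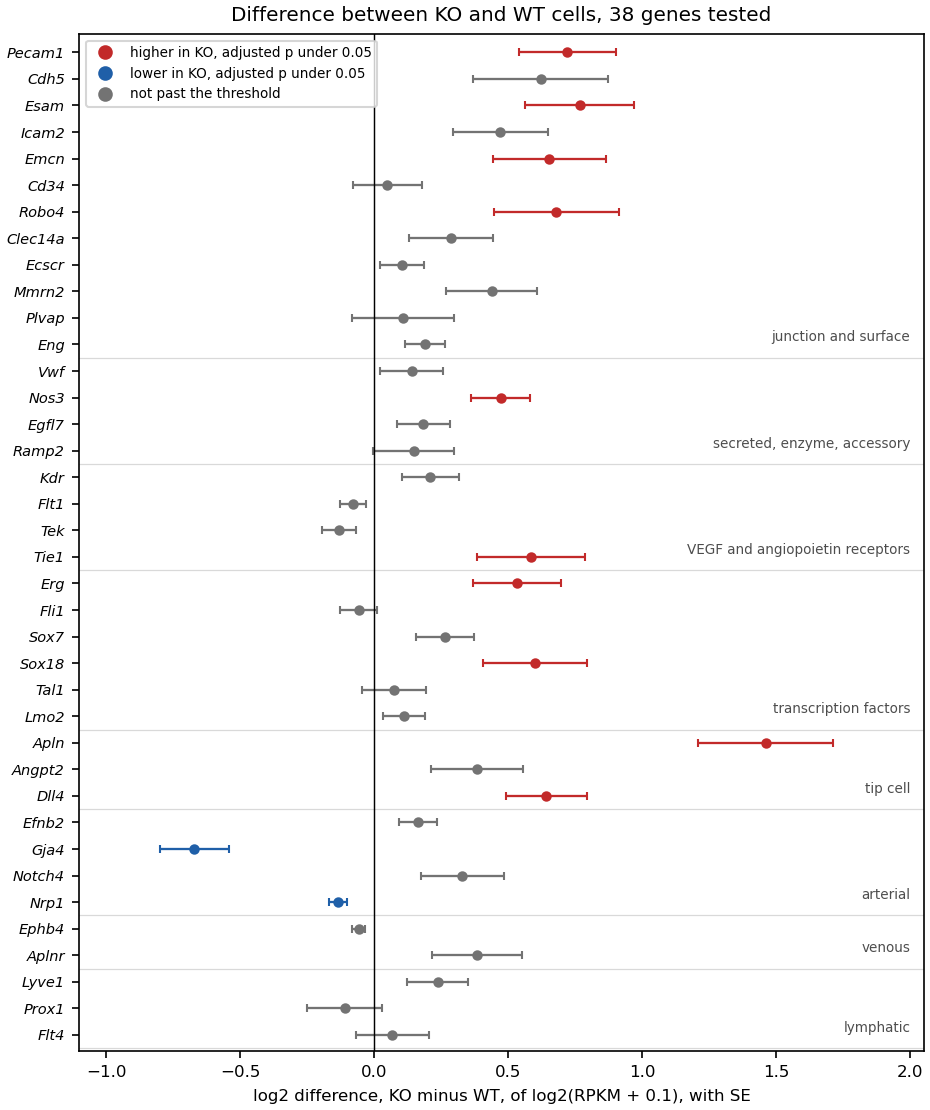
Log2 difference, KO minus WT, of log2(RPKM + 0.1) for the 38 genes tested, with SE bars, by group of genes; red marks a higher and blue a lower level in KO at an adjusted p under 0.05. Apln lies at 1.46, the other genes that were higher in KO between 0.47 and 0.77, and Gja4 and Nrp1 are the 2 that were lower.

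All 12 junction and surface genes had a positive difference, 4 passed the test as higher in KO and 8 did not pass. Pecam1 (GRCm38, chr11:106654213-106715281), an adhesion molecule of the contacts between endothelial cells that platelets and leukocytes also carry, ran from 0.599 to 2.41 RPKM in WT with a median of 1.18, and from 1.39 to 3.38 RPKM in KO with a median of 1.93. KO exceeded WT at every time point, 7 WT libraries lay below the lowest KO library, and the log2 difference was 0.72 (SE 0.18, adjusted p = 0.00442). Esam (chr9:37528089-37538319), a tight junction protein, ran from 0.693 to 4.25 RPKM in WT with a median of 1.20 and from 1.21 to 3.25 RPKM in KO with a median of 2.26, with a log2 difference of 0.77 (SE 0.20, adjusted p = 0.00694). The WT library at 16 h held the highest Esam value of all 24 libraries, and KO exceeded WT at 10 time points. Without that WT library, left out after the values were seen, the adjusted p was 0.000161. Leaving out the highest WT value widens the difference by itself, so this adds no support.

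Robo4, a receptor that steadies vessel walls, was at 0.314 ± 0.167 and 0.581 ± 0.320 RPKM in WT and KO and was higher in KO throughout (log2 difference 0.68, SE 0.23, adjusted p = 0.0317). The sialomucin Emcn, a surface protein of capillaries and veins, was at 0.548 ± 0.261 and 0.900 ± 0.340 RPKM with KO above WT at 11 time points (log2 difference 0.65, SE 0.21, adjusted p = 0.0231). A mean of 14 fragments per library stood behind the WT value of Emcn and 21.3 behind that of Robo4. Cdh5 (chr8:104101625-104144502), the most abundant gene of the group after Cd34, ran from 2.02 to 12.5 RPKM in WT with a median of 4.597 and from 4.33 to 10.95 RPKM in KO with a median of 7.21. Its log2 difference of 0.62 did not pass the test (SE 0.25, adjusted p = 0.0701), although KO was higher at 10 time points. Without the WT library at 16 h, where WT was highest, the adjusted p was 0.0175. As for Esam, that library was left out after the values were seen, which widens the difference by itself and adds no support. For the progenitor and endothelial marker Cd34 the log2 difference was 0.05 (95% interval -0.21 to 0.31, adjusted p = 0.809). The 6 others, Icam2, Mmrn2, Clec14a, Eng, Plvap and Ecscr, had log2 differences from 0.10 to 0.47 with adjusted p from 0.0506 to 0.711. The exons of Cd34, Eng and Ecscr overlap those of a gene on the opposite strand by 148, 61 and 62 bases, and since the library kit does not mark strand, reads of the partners cannot be told apart.

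Among the secreted, enzymatic and accessory genes, Nos3 passed the test and 3 did not. Nos3 encodes the endothelial nitric oxide synthase, which relaxes vessels. It ran from 0.184 to 0.454 RPKM in WT with a median of 0.290 and from 0.321 to 0.591 RPKM in KO with a median of 0.454 (log2 difference 0.47, SE 0.11, adjusted p = 0.00236). KO exceeded WT at 11 time points, and 7 WT libraries lay below every KO library. Its exons share 1040 bases with the antisense gene Gm15587 and 294 bases with Atg9b on the opposite strand, so part of the Nos3 reads may be theirs. The matrix-bound vessel regulator Egfl7 was at 2.71 ± 0.453 and 3.11 ± 0.641 RPKM, the adrenomedullin co-receptor Ramp2 at 1.47 ± 0.350 and 1.67 ± 0.523 RPKM, and Vwf at 0.0873 ± 0.0338 and 0.107 ± 0.0415 RPKM in WT and KO, with adjusted p of 0.177, 0.501 and 0.404. The exons of Ramp2 and of its neighbour Vps25 share 1103 bases on the same strand, and those of Egfl7 share 264 bases with Gm20532.

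Of the 4 VEGF and angiopoietin receptors, Tie1 was higher in KO and the 3 others did not pass. Tie1, a partner of the angiopoietin receptor, was at 0.380 ± 0.165 and 0.624 ± 0.262 RPKM in WT and KO, with KO above WT at 11 time points (log2 difference 0.58, SE 0.20, adjusted p = 0.0342). Tek, the angiopoietin receptor itself, was at 1.82 ± 0.198 and 1.66 ± 0.206 RPKM with KO below WT at 10 time points (log2 difference -0.13, 95% interval -0.26 to 0.00137, adjusted p = 0.136). Kdr, the main signalling receptor for VEGF, was at 0.989 ± 0.210 and 1.16 ± 0.247 RPKM (log2 difference 0.21, 95% interval -0.01 to 0.43, adjusted p = 0.153). Flt1, which binds VEGF tightly and signals weakly, was at 12.2 ± 1.12 and 11.5 ± 0.926 RPKM (log2 difference -0.08, 95% interval -0.18 to 0.02, adjusted p = 0.248). Per length Flt1 exceeded Kdr in every library: the lowest of its 24 values was 10.4 RPKM, and the highest of Kdr was 1.62 RPKM.

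Among the 6 transcription factors, Erg and Sox18 were higher in KO. Erg, the ETS factor that maintains endothelial identity, ran from 0.111 to 0.401 RPKM in WT with a median of 0.259 and from 0.218 to 0.751 RPKM in KO with a median of 0.416, with KO above WT throughout (log2 difference 0.53, SE 0.16, adjusted p = 0.0185). Sox18, a SOX factor of early blood and lymph vessels, was at 0.552 ± 0.209 and 0.883 ± 0.340 RPKM with KO above WT at 10 time points (log2 difference 0.60, SE 0.19, adjusted p = 0.0245). The related Sox7 missed the threshold at 0.284 ± 0.0653 and 0.362 ± 0.0917 RPKM (adjusted p = 0.0733). Fli1, an ETS factor of blood and endothelium, was at 1.47 ± 0.151 and 1.42 ± 0.207 RPKM, with a log2 difference of -0.06 (95% interval -0.20 to 0.08, adjusted p = 0.568). Lmo2 and Tal1, which work together in blood and endothelial precursors, had log2 differences of 0.11 and 0.07 (adjusted p = 0.323 and 0.681).

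Of the 3 tip cell genes, Apln and Dll4 were higher in KO and Angpt2 did not pass. Apln (chrX:48025146-48034852) encodes apelin, a peptide that tip cells secrete and that acts on the receptor APLNR. In WT it was measured at 0.818, 1.34, 0.597, 0.766, 0.279 and 0.739 RPKM from 12 to 32 h and at 0.620, 0.273, 0.252, 0.335, 0.491 and 0.395 RPKM from 36 to 56 h. In KO the same time points gave 1.13, 3.47, 2.78, 2.20, 2.27 and 2.03 RPKM and then 2.38, 1.30, 1.098, 1.03, 0.849 and 0.776 RPKM. Apln was higher in KO at every time point, 10 of the 12 WT libraries lay below the lowest KO library, and both genotypes were highest at 16 h. The means were 0.575 ± 0.315 and 1.78 ± 0.866 RPKM, a ratio of 3.09, with 32 and 94.9 fragments per library behind them. The log2 difference of 1.46 (SE 0.25, adjusted p = 0.000153) was the largest of the 38 genes in either direction, and Apln alone among the 12 genes passed under all 14 other settings of the analysis, with adjusted p from 2.84e-05 to 0.00760.

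Dll4 (chr2:119325784-119335666), the NOTCH ligand by which a tip cell restrains its neighbours, ran from 0.114 to 0.426 RPKM in WT with a median of 0.192 and from 0.284 to 0.617 RPKM in KO with a median of 0.384. KO exceeded WT at all 12 time points, although by little at 12 h, where both genotypes were at 0.361 RPKM to 3 digits, and 8 WT libraries lay below every KO library (log2 difference 0.64, SE 0.15, adjusted p = 0.00293). The exons of Dll4 share 214 bases with the opposite-strand transcript Gm14207. Angpt2, an angiopoietin that loosens vessels for sprouting, was at 0.593 ± 0.186 and 0.821 ± 0.332 RPKM in WT and KO, with KO above WT at 10 time points (log2 difference 0.38, 95% interval 0.03 to 0.74, adjusted p = 0.102). The receptor of apelin, Aplnr, is described with the venous genes.

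Of the 5 arterial genes 4 were tested, 0 were higher in KO and 2, Gja4 and Nrp1, were lower. The other 2 tested, Efnb2 and Notch4, had positive differences that did not pass. Every gene was placed in a single group, and the NOTCH ligand Dll4 was counted with the tip cell genes. Gja4 (chr4:127311420-127314039) encodes a connexin of arterial gap junctions. In WT it was measured at 2.40, 2.17, 2.60, 2.34, 2.24 and 1.603 RPKM from 12 to 32 h and at 1.61, 2.26, 2.67, 2.502, 1.46 and 1.23 RPKM from 36 to 56 h. In KO the values were 1.11, 1.44, 0.754, 1.25, 0.861 and 1.38 RPKM and then 1.09, 1.34, 1.45, 1.33, 1.54 and 1.66 RPKM. KO was lower at the 10 time points from 12 to 48 h and higher at 52 and 56 h, and 8 WT libraries lay above the highest KO library. The log2 difference was -0.67 (SE 0.13, adjusted p = 0.000454), and over 36 to 56 h alone it was -0.41 and did not pass (adjusted p = 0.129). Nrp1 (chr8:128359073-128505475) ran from 19.6 to 23.4 RPKM in WT with a median of 21.4 and from 17.4 to 21.5 RPKM in KO with a median of 19.8, with KO below WT at 11 time points. Its log2 difference of -0.13 (SE 0.03, adjusted p = 0.00515) was the smallest in size of the 12 that passed, in the gene with the highest level, and over 12 to 32 h alone it did not pass (adjusted p = 0.179). Efnb2, the ephrin of arterial endothelium, was at 6.63 ± 0.779 and 7.46 ± 1.04 RPKM (log2 difference 0.16, 95% interval 0.02 to 0.31, adjusted p = 0.0926), and the receptor Notch4 at 0.323 ± 0.109 and 0.439 ± 0.167 RPKM (log2 difference 0.33, 95% interval 0.00881 to 0.65, adjusted p = 0.121). Gja5, left out of the test, was higher in KO at 7 time points and lower at 5, and its exons share 165 bases with Gpr89 on the opposite strand.

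Neither venous gene passed. Ephb4, the receptor for Efnb2 on veins, was at 8.75 ± 0.316 and 8.40 ± 0.305 RPKM in WT and KO, with KO below WT at 10 time points (log2 difference -0.06, 95% interval -0.11 to -0.00811, adjusted p = 0.0787). Aplnr, the apelin receptor, was at 0.119 ± 0.0527 and 0.191 ± 0.0981 RPKM, or 7.54 and 11.6 fragments per library, with a log2 difference of 0.38 (95% interval 0.04 to 0.73, adjusted p = 0.0936). None of the 3 lymphatic genes passed either. Lyve1, a hyaluronan receptor of lymphatic endothelium that macrophages can also carry, was the highest of them at 2.96 ± 0.648 and 3.46 ± 0.612 RPKM (log2 difference 0.24, 95% interval -0.000689 to 0.47, adjusted p = 0.133). Flt4, the receptor for the lymphatic growth factor VEGF-C, was at 0.361 ± 0.116 and 0.381 ± 0.112 RPKM (log2 difference 0.07, 95% interval -0.21 to 0.35, adjusted p = 0.752). Prox1 was at 0.192 ± 0.0716 and 0.172 ± 0.0705 RPKM, with 13.9 and 12 fragments per library (log2 difference -0.11, 95% interval -0.40 to 0.17, adjusted p = 0.592), and its exons share 133 bases with the antisense gene Prox1os.

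Promoter sequence was compared among the 22 of 39 genes with an entry in the RefSeq promoter table (GRCm38.p6), which gave 28 windows of 250 bases before the start of transcription. The half-site AGGTCA, to which REV-ERB proteins and other nuclear receptors bind, was present on either strand in 5 of 28 windows (17.9%) and in 14% of 32851 windows of all genes. The E-box CACGTG, bound by the clock factors CLOCK and BMAL1, was in 0 of 28 windows and in 6.02% of all. CCGGAAG or ACAGGAAG, sequences bound by ETS factors, stood in 3 of 28 (10.7%) and in 9.58% of all. The windows of the gene with the largest rise, the gene with the largest fall and Emcn, the only window holding AGGTCA at 2 places, are shown 5′ to 3′ on the strand of the gene, with any of these motifs in capitals.
Apln, chrX:48034854-48035103, minus strand: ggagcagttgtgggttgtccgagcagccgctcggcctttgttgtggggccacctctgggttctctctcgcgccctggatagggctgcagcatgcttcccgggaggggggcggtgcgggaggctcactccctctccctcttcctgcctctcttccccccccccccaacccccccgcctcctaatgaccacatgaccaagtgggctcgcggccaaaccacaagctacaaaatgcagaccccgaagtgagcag
Gja4, chr4:127314040-127314289, minus strand: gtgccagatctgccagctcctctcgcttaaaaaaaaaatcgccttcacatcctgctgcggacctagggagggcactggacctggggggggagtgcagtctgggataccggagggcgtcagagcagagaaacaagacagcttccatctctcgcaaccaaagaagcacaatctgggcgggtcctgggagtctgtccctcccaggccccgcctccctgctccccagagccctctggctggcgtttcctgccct
Emcn, chr3:137340828-137341077, plus strand: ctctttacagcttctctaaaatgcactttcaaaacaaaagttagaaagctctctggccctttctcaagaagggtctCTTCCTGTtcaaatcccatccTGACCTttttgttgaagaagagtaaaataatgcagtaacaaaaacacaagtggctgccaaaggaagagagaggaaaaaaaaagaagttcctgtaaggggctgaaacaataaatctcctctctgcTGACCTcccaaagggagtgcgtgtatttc
The windows of Apln and Gja4 held none of the searched sequences. In that of Emcn the AGGTCA half-sites lie on the reverse strand, first base at -153 and -29 from the start, and the ETS sequence, also on the reverse strand, at -174. A match here describes letters and does not show that a protein binds.

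Of listed markers of pericytes and smooth muscle 7 of 11 tested were higher in KO and 0 lower, of macrophages 4 of 11 and 0, of platelets and megakaryocytes 3 of 5 and 0, of epithelium 5 of 6 and 0, of fibroblasts 4 of 7 and 2, and of cardiac muscle 4 of 6 and 1, where 11.5% of all genes were higher and 14.7% lower. The summed level of the macrophage list spanned 657 to 942 RPKM over WT and 761 to 984 RPKM over KO libraries. That of the platelet list was 41.1 to 77.4 and 54.9 to 94.1 RPKM. Most of the platelet sum was Pf4, at 43.9 RPKM in WT and 61.3 in KO. The 2 platelet markers that did not pass were Itga2b (log2 difference 0.34, adjusted p = 0.244) and Itgb3 (-0.14, adjusted p = 0.409). The macrophage and platelet sums, like Pecam1, were higher in KO throughout, as were those of the fibroblast and epithelium lists. The macrophage sum was led by Lyz2, at 341 RPKM in WT and 421 in KO. Among the 7 macrophage markers that did not pass were Csf1r (log2 difference -0.001) and Ptprc (-0.03). With Pecam1, over the 12 time points of a genotype, the median Pearson's r of the macrophage markers was 0.195 in WT and -0.277 in KO. For the platelet markers it was 0.506 and 0.542. The pericyte and smooth muscle list summed to 261 to 355 RPKM over WT and 276 to 396 RPKM over KO libraries, with KO above WT at 10 time points. The erythroid list, with haemoglobin genes such as Hbb-y at a median of 0, summed to no more than 1.41 RPKM in WT and 2.23 RPKM in KO. Platelets and macrophages share Pecam1, Esam, Lyve1 and others with endothelium, and their part in the differences was not tested.

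Slopes over time were mostly negative. A linear trend and a 24 h rhythm were fitted to each genotype, and the slope, in log2 units per 24 h, was negative for 32 of 38 genes in WT and for 31 in KO, with medians of -0.22 and -0.20 against 0.01 and -0.01 for all genes. In KO 6 genes passed, all falling, where 3.14% of all genes passed, 1.37% falling and 1.77% rising. The slopes were -0.91 for Robo4 (SE 0.23, adjusted p = 0.0331), -0.77 for Emcn (SE 0.19, adjusted p = 0.0309), -0.62 for Angpt2 (SE 0.17, adjusted p = 0.0471), -0.59 for Notch4 (SE 0.13, adjusted p = 0.0141), -0.53 for Cd34 (SE 0.09, adjusted p = 0.00238) and -0.31 for Efnb2 (SE 0.05, adjusted p = 0.00352). Emcn in KO went from 1.44 RPKM at 12 h to 0.514 RPKM at 56 h, and Cd34 from 29.4 to 11.7 RPKM. In WT Efnb2 alone passed (slope -0.24, SE 0.05, adjusted p = 0.0215), where 2.89% of all genes passed, 1.51% falling and 1.38% rising. It went from 6.96 RPKM at 12 h to 6.21 RPKM at 56 h with its peak of 8.01 RPKM at 16 h. The slopes of Cd34 and Emcn in WT were -0.32 and -0.62 and did not pass (adjusted p = 0.0594 and 0.0837).

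The difference in slope between the genotypes passed for none of the 38 genes by limma, with 1 gene at an unadjusted p under 0.05, where 6.5% of all genes had such a p. That gene was Gja4, with a difference in slope of 0.59 per 24 h (SE 0.18, unadjusted p = 0.00325, adjusted p = 0.622). A fall seen past the threshold in KO and not in WT is therefore not shown to differ between them. Over 20 to 56 h, with fewer libraries, 3 genes passed in KO in place of 6, and 111 of all genes in place of 474. The time point cannot be told apart from the embryoid bodies pooled for it.

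**Figure D3:**
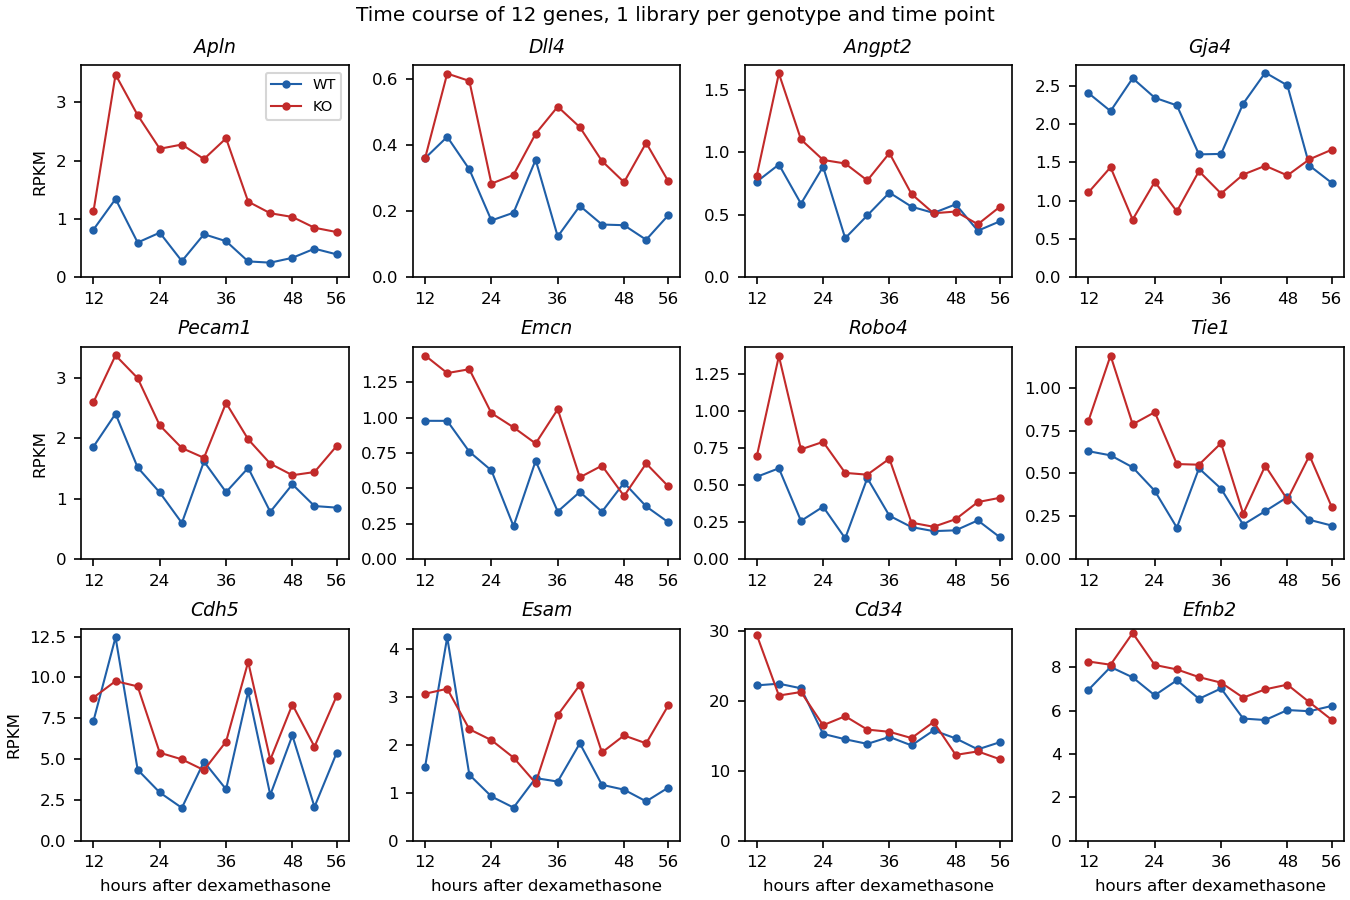
RPKM of 12 of the genes against hours after dexamethasone, with 1 library per point, WT in blue and KO in red. Apln and Dll4 are higher in KO throughout, and Gja4 is lower in KO up to 48 h. In WT most of the others are highest at 12 or 16 h. Cdh5 and Esam also have a high value at 40 h, which is their highest in KO.

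None of the 38 genes passed the limma test for a 24 h rhythm. Of all 15112 genes, 6 passed in WT (0.0397%) and 12 in KO (0.0794%). At an unadjusted p under 0.05 there were 6 of the 38 genes in WT and 0 in KO, where 8.23% and 8.39% of all genes had such a p. The smallest p values in WT were those of Esam (amplitude 0.66 on the log2 scale, peak near 15.4 h, unadjusted p = 0.00235, adjusted p = 0.431) and Gja4 (amplitude 0.35, peak near 20.8 h, unadjusted p = 0.00537, adjusted p = 0.499). For the difference in rhythm 0 genes passed, 3 had an unadjusted p under 0.05, as had 4.93% of all genes, and Prox1, Gja4 and Sox7 had unadjusted p of 0.0165, 0.0182 and 0.0196, each with an adjusted p of 0.941.

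To see which genes varied together from library to library, levels were correlated with those of Cdh5 over the 12 time points of each genotype, 76 relations in all, with permutation tests of Pearson's r. In WT Esam (r = 0.883, rho = 0.797, permutation p = 0.0001, adjusted p = 0.00760), Pecam1 (r = 0.846, rho = 0.776, permutation p = 0.00071, adjusted p = 0.0180) and Flt4 (r = 0.813, rho = 0.741, permutation p = 0.00118, adjusted p = 0.0224) followed Cdh5, and without the 16 and 40 h libraries, where Cdh5 was farthest from its median, r was 0.692, 0.721 and 0.580. The permutation p of rho was 0.00267, 0.00407 and 0.00790, none of which passed after adjustment. In KO Esam alone followed Cdh5 (r = 0.853, permutation p = 0.00068, adjusted p = 0.0180, rho = 0.923, permutation p = 0.00004, adjusted p = 0.00304), with r = 0.771 without the 32 and 40 h libraries. Over 20 to 56 h none of the relations passed. The median r with Cdh5 over the other genes was 0.391 in WT and 0.0783 in KO.

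With Pecam1 as the reference, chosen after the values were seen, the median r was 0.562 in WT and 0.638 in KO. Over the 703 pairs of the 38 genes the median r on the log2 scale was 0.309 in WT and 0.367 in KO, and 130 pairs had r above 0.5 in both. Above 0.7 in both were 30 pairs, formed by 17 of the genes, which is a description, since the libraries share the slopes given above. Emcn and Tie1 each took part in 8 of these pairs and Robo4, Sox18 and Notch4 in 6 each. Emcn and Tie1 had r = 0.875 in WT and 0.878 in KO, Emcn and Pecam1 0.913 and 0.834, and Sox18 and Tie1 0.905 and 0.821. Apln varied most like Notch4 (r = 0.805 and 0.792), the pericyte proteoglycan Cspg4 (0.855 and 0.768) and Robo4 (0.893 and 0.766) among all genes tested. Outside these pairs stood 21 genes, among them Flt1, Kdr, Tek, Fli1, Nrp1, Ephb4, Lyve1, Prox1, Dll4 and Gja4. Cdh5 and Esam, at 0.855 and 0.859, formed a pair with no other partner.

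**Figure D4:**
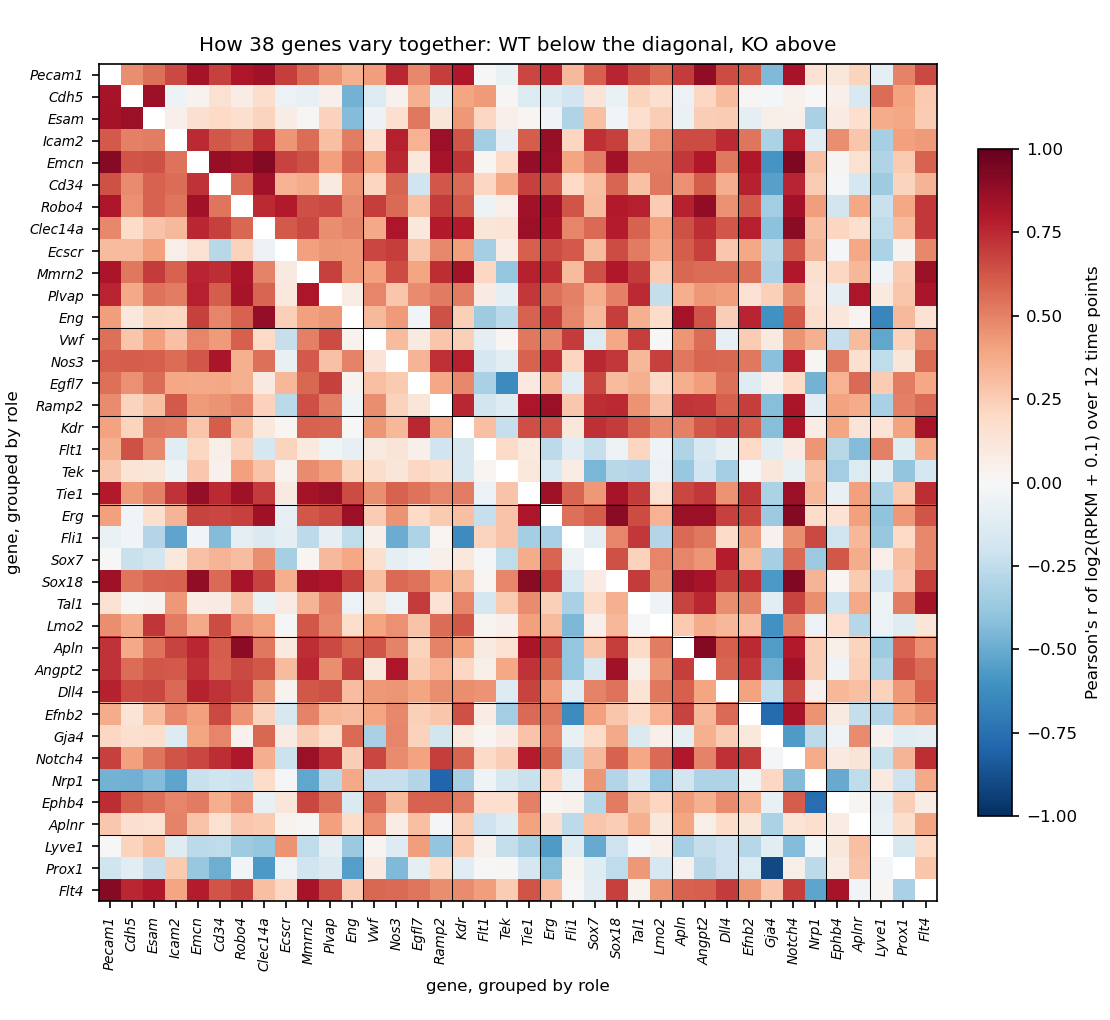
Pearson's r of log2(RPKM + 0.1) over 12 time points between each pair of the 38 genes, with WT below the diagonal and KO above; black lines part the groups of genes. Pecam1, Emcn, Robo4, Tie1, Sox18 and Notch4 form red rows in both genotypes, while Cdh5 and Esam are red with each other in both and with Pecam1 mainly in WT, and Nrp1, Lyve1 and Gja4 are pale or blue.

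The 8 genes whose pattern was most like that of Cdh5 were none of the other 38. By the lower of the r values of WT and KO among all genes tested, the closest were Serpinb9g (0.935 in WT and 0.922 in KO), Adgrf5 (0.973 and 0.921), Klhl22 (0.917 and 0.916) and Sct (0.953 and 0.910). Adgrf5 is among the endothelial and tip cell genes of the pathway list described below. Tfap2c, a transcription factor of trophoblast and germ cells, was seventh in order (0.897 and 0.891). These were named after their values were seen, and no test was made. Cdh5 was highest in WT at 16 h (12.5 RPKM) and 40 h (9.14 RPKM), where Tfap2c was at 3.67 and 4.02 RPKM, and lowest at 28 h (2.02 RPKM) and 52 h (2.08 RPKM), where Tfap2c was at 1.59 and 0.672 RPKM. In KO Cdh5 was highest at 40 h (10.95 RPKM), with Tfap2c at 4.23 RPKM. A list of 14 trophoblast markers, added after these values were seen, summed to 26.7 to 153 RPKM over WT and 34.8 to 127 RPKM over KO libraries, with KO above WT at 8 time points, led by Tpbpa at 25.9 RPKM and Prl7d1 at 13.2 RPKM in WT. Over its 12 members tested, the median r with Cdh5 was 0.815 in WT and 0.693 in KO, with Esam 0.668 and 0.614, and with Pecam1 0.557 and 0.117. The same median was 0.402 and -0.19 for Emcn and -0.204 and -0.348 for Erg. It was 0.593 and 0.334 for Flt1, 0.546 and 0.121 for Dll4, 0.521 and 0.0955 for Flt4, and 0.346 and 0.509 for Lyve1. Tfap2c is itself 1 of these 12, so part of a high r with Cdh5 was fixed by the choice of the list. For the 6 epithelium markers the median r was 0.536 and 0.291 with Cdh5, and 0.422 and 0.492 with Esam. Of the 12 trophoblast markers, 1 (Hand1) was higher in KO and 0 lower. Their part in the difference in Cdh5 and Esam was not tested.

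**Figure D5:**
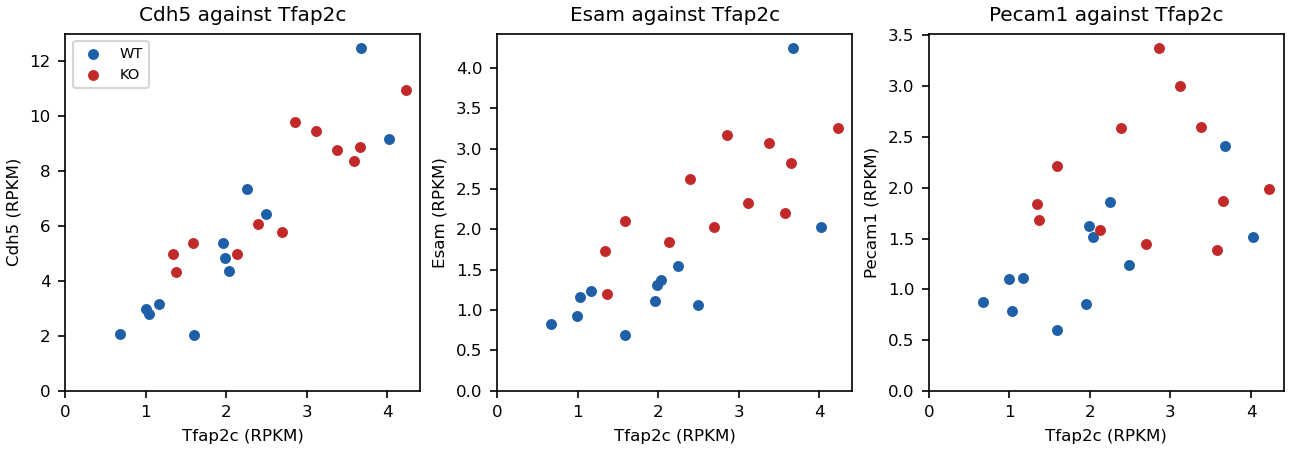
RPKM of Cdh5, Esam and Pecam1 against that of Tfap2c, with 1 point per library, WT in blue and KO in red. Cdh5 climbs with Tfap2c, which spans 0.672 to 4.02 RPKM in WT and 1.34 to 4.23 RPKM in KO; Pecam1 in KO is spread with no clear slope.

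The wider pathway was read from a list of 90 other genes of vessel growth, of which 84 were tested, 28 were higher in KO, 14 were lower and 42 did not pass, where 11.5% of all genes were higher and 14.7% lower. Their median log2 difference was 0.02. The ligand Vegfa was at 16.6 ± 2.59 and 20.4 ± 1.68 RPKM in WT and KO, with KO above WT at 11 time points (log2 difference 0.31, SE 0.07, adjusted p = 0.00133). Pgf, the placental growth factor that binds FLT1, rose from 3.68 ± 0.942 to 5.53 ± 1.27 RPKM (log2 difference 0.58, adjusted p = 0.00116). Vegfc, the lymphatic growth factor, fell from 17.7 ± 1.57 to 14.2 ± 1.32 RPKM (log2 difference -0.31, adjusted p = 8.02e-05) and is named after its values were seen. Among 8 NOTCH ligands, receptors and targets, 5 were higher in KO and 0 lower. Among 7 genes of the BMP and TGF-beta pathways 3 were higher, among 6 genes of PDGF, sphingosine phosphate and adrenomedullin signalling 4 were higher, and in both lists 0 were lower. Guidance genes, the ephrins, semaphorins, slits and netrins, gave 0 of 9 higher and 1 lower, which was Ntn1 (1.55 ± 0.853 and 0.889 ± 0.196 RPKM, log2 difference -0.64, adjusted p = 0.00954). Of VEGF ligands and co-receptors 3 of 6 were higher and 2 lower, and of hypoxia and endothelial regulators 4 of 14 and 4. Other endothelial and tip cell genes gave 6 of 24 higher and 5 lower, and anti-angiogenic proteins 2 of 7 and 2. The list of angiopoietin and apelin ligands gave 1 of 3 and 0, the 1 being the angiopoietin-like gene Angptl4 (log2 difference 0.30, adjusted p = 0.0395). The angiopoietins Angpt1 and Angpt4 did not pass (adjusted p = 0.109 and 0.737).

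The 10 pathway genes with the largest differences among those that passed were these. Gpihbp1, which anchors lipoprotein lipase on capillaries, was at 0.674 ± 0.356 and 1.37 ± 0.460 RPKM (log2 difference 0.97, adjusted p = 0.000797). Thbd, the anticoagulant thrombomodulin, was at 0.515 ± 0.204 and 0.939 ± 0.177 RPKM with KO above WT throughout (log2 difference 0.80, adjusted p = 0.000151). Esm1, a secreted proteoglycan of tip cells, was at 0.132 ± 0.0897 and 0.346 ± 0.281 RPKM with 5 and 12.25 fragments per library (log2 difference 0.82, adjusted p = 0.0216), and the adhesion receptor Adgrl4 was at 0.152 ± 0.0827 and 0.304 ± 0.143 RPKM (log2 difference 0.68, adjusted p = 0.0135). The others were the transcription factor Gata2 (log2 difference 0.59), the glucose transporter Slc2a1 (0.45), the chemokine Cxcl12 (-0.43, below WT throughout) and the water channel Aqp1 (-0.42), beside Pgf and Ntn1. Slc2a1 and Cxcl12 are also used by many cells outside vessels.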

How the data were processed

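The authors sequenced 101-bp paired-end TruSeq libraries, a kit that does not mark strand, from cells differentiated from WT and KO embryoid bodies. They trimmed the reads with Trimmomatic 0.36 and aligned them to GRCm38 with STAR 2.5.4b. Reads with a mapping quality under 10 were removed, and exon reads of UCSC known canonical genes were counted with HOMER. The deposited values are RPKM, scaled by the authors to exon length and library total. Multiplied back by both, 100% of the values were multiples of 0.5 fragment (tolerance 0.01), which gave the fragment numbers, and no count test was made. These cover counting error only.

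Here log2(RPKM + 0.1) was fitted with limma 3.58.1 (R 4.3.3, variance trend) over 15112 genes with a mean above 0.5 RPM in WT or KO, with Benjamini-Hochberg adjustment over all of them and a threshold of 0.05. Genotype was fitted alone, and trend and 24 h rhythm in a second model with terms for each genotype. Intervals (95%) used the t distribution of the moderated fit. Fold changes on this scale understate those of low genes. Serial time points served as replicates, so p-values measure the spread over time and between pools of embryoid bodies. Correlations used 100000 permutations, two-sided (Python 3.11.15, scipy 1.17.1). The scripts were tested on simulated data.

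Genes named with values were those past a threshold, all tip, arterial, venous and lymphatic genes, the main receptors and junction genes and, of the pathway list, Vegfa and at most the 10 with the largest change past the threshold. The genes and lists were chosen with earlier results of these data known. Exon overlaps came from GENCODE M21 and promoters from RefSeq, both on GRCm38. Alternatives covered pseudocount, filter, normalization, variance trend, subsets of time points, covariates, the time point as a block and a permutation test.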

Additional observations from a re-analysis of the deposited data

How the results depend on the processing

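Against 12 genes that differed between the genotypes, 5 passed with a mean of at least 1 RPKM required, which left 20 genes tested. Of all 12243 genes in that setting 3183 passed. With quantile normalization 20 passed (3822 of all 15112 genes) and with time and rhythm as covariates 20 (4526 of all). Over 12 to 32 h 3 passed (1331 of all) and over 36 to 56 h 7 (2072 of all). The last pair had fewer samples, and the cause was not tested for the others. Apart from the time point as a block, given last, the other settings gave 10 to 17, the 17 without WT replicate 2 (16 h). Trend gave 3 genes in place of 1 in WT with quantile normalization, and in KO, in place of 6, 3 without a filter, 2 with at least 1 RPKM and 3 over 20 to 56 h. The differences in trend and in rhythm and the rhythm in each genotype stayed at 0 under every setting run. Of the genes that followed Cdh5, 3 in WT and 1 in KO, 0 and 0 were left over 20 to 56 h. With Pecam1, 16 in WT became 4 on residuals from a linear trend and 1 over 20 to 56 h, and 16 in KO became 3 and 3. The settings without WT 16 h and over 20 to 56 h and the Pecam1 reference were chosen after seeing the data.

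Over 36 to 56 h the log2 difference changed sign for Cd34 (-0.0458), Ecscr (-0.0339) and Tal1 (-0.0739), and over 12 to 32 h for Fli1 (0.0938) and Prox1 (0.0482), none of which passed in any setting. Of the other values for single genes, 457 kept direction and side of the threshold, 36 moved past it and 16 fell short of it.

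With the time point as a block, 22 genes passed in place of 12, 20 higher and 2 lower in KO, where 4374 in place of 3970 of all genes passed. The 10 added genes were Cdh5, Icam2, Clec14a, Mmrn2, Eng, Kdr, Angpt2, Efnb2, Notch4 and Lyve1, with adjusted p from 0.00432 to 0.0479 by limma, and none of the 12 was lost. The libraries share only a time: deviations of same-time pairs had a mean r of 0.16 (-0.18 to 0.39), with 7 of 12 over 0.1. Pairs from different time points had a mean r of -0.015 (-0.35 to 0.45). Same-time pairs were thus more alike on average, with overlapping ranges, and the difference was not tested. Depth limits the genes with the fewest fragments, Gja5, Aplnr, Clec14a and Icam2.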
